A study of Mus musculus with 24 samples.

Results

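*Atf4*, *Atf5*, *Ddit3* (the gene of CHOP), *Atf3*, *Cebpb*, *Cebpg* and *Trib3* were followed as the 7 genes listed for ATF4, CHOP and related stress factors, among 55487 genes of the merged table of gene counts. They were chosen by gene symbol, and all 7 were among the 15401 genes that passed the filter on low counts. mRNA had been sequenced from wild-type (WT) mouse embryonic fibroblasts (MEFs) and from MEFs lacking *Tfeb* and *Tfe3* (*tfeb tfe3* DKO), each treated with vehicle (0.1% DMSO), with 100 nM torin1, an ATP-competitive inhibitor of MTOR, or with 10 µM MK-8722, a direct activator of AMPK. There were 24 libraries, 4 for each of the 6 combinations of genotype and drug. The WT libraries came from passages 7, 8, 9 and 11 and the DKO libraries from passages 8, 9, 10 and 11, each passage giving 1 library per treatment. The treatment time of the sequenced cells is not given in the sources used here. Each genotype was 1 line of MEFs, so genotype and line cannot be told apart. Nothing states that the libraries of a group were independent cultures beyond their passage numbers, and p-values measure the spread between these libraries.

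ATF4 is the basic leucine zipper (bZIP) transcription factor through which cells answer amino acid shortage, endoplasmic reticulum (ER) stress and other insults that lead to phosphorylation of the alpha subunit of the translation factor eIF2, a program known as the integrated stress response. Its protein is controlled to a large extent at the level of translation, and MTORC1 also promotes its synthesis. ATF4 dimerizes with C/EBP proteins such as CEBPG and CEBPB, switches on genes of amino acid synthesis and uptake, and induces the stress factors ATF5, CHOP (*Ddit3*), ATF3 and the pseudokinase TRIB3, of which TRIB3 feeds back to restrain ATF4 and CHOP. mRNA levels of these genes are what was measured here, not their proteins. TFEB and TFE3 are transcription factors of lysosomal genes that are held back by MTORC1.

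Library totals ranged from 24668870 to 33332507 estimated counts. *Tfeb* averaged 22.9 ± 1.74 CPM (counts scaled to library size by TMM; SD, n = 4) in WT and 2.25 ± 0.289 CPM in DKO cells under DMSO, whereas *Tfe3* averaged 120 ± 1.17 CPM and 124 ± 2.11 CPM, so the gene total of *Tfe3* did not show its loss. The fibroblast genes *Col1a1*, *Vim* and *Fn1* were at 795 CPM or above in every library, while *Thy1* and *Dcn* were at or near 0 (at most 4.56 and 1.24 CPM). These marker levels are CPM without TMM scaling. Of the other cell types' markers, *Ptprc*, *Pecam1*, *Epcam* and *Myod1* stayed below 1 CPM in all libraries and *Adgre1* was at 0 in all 24, while *Cd68* reached 14.6 CPM, the muscle gene *Acta1* 9.61 CPM, the epithelial gene *Cdh1* 1.99 CPM and the endothelial gene *Kdr* 1.18 CPM. In bulk RNA, fewer cells of a type and less RNA per cell cannot be told apart. Libraries of 2 passages stood apart. All 40 interferon-stimulated genes (ISGs) of a list were highest in the WT passage 11 library under each treatment, and the libraries of DKO passage 8 were high in ATF4 target genes under DMSO and MK-8722, as described below. Results that rest on these libraries are given with and without them. RNA integrity was 9.7 or above except in the DKO MK-8722 library of passage 10, at 7.9.

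On GRCm38, *Atf4* (ENSMUSG00000042406) lies on chromosome 15 (80255184 to 80257541), *Atf5* (ENSMUSG00000038539) on chromosome 7 (44812256 to 44816658), *Ddit3* (ENSMUSG00000025408) on chromosome 10 (127290774 to 127296288) and *Atf3* (ENSMUSG00000026628) on chromosome 1 (191170296 to 191218039). *Cebpb* (ENSMUSG00000056501) lies on chromosome 2 (167688915 to 167690418), *Cebpg* (ENSMUSG00000056216) on chromosome 7 (35046422 to 35056573) and *Trib3* (ENSMUSG00000032715) on chromosome 2 (152337422 to 152344032). A further identifier with the symbol *Ddit3*, ENSMUSG00000116429, overlaps the first on the same strand and held 25 counts over all libraries, against 13956 for the gene used. Exons of *Cebpb* overlap *Tmem189*, those of *Ddit3* overlap *Mars* and those of *Atf5* overlap *Nup62* and *Il4i1* on the opposite strand. Of the 52-base windows of the leading transcript, 262 of 1453 of *Cebpb*, 71 of 839 of *Ddit3* and 34 of 1765 of *Atf5* also occur in transcripts of other genes or of the second *Ddit3* identifier, and none of *Atf4*, *Cebpg*, *Trib3* or *Atf3*. Whether counting used the strand is not given in the sources used here, so the counts of *Cebpb*, *Ddit3* and *Atf5* are uncertain to that extent.

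Promoter sequences are shown for *Trib3*, which fell most with torin1, for *Atf3* and *Ddit3*, whose responses to torin1 differed between genotypes, and for *Atf4* itself. They were taken from RefSeq on GRCm38.p6, which had an entry for all 7 genes, as windows of 300 bases around the annotated start site (position 0). Each was searched on both strands for TGATGNAA, a composite C/EBP and ATF site that heterodimers of ATF4 or CHOP with C/EBP proteins bind, and for TCACGTGA (the core of the CLEAR element of TFEB), TGACGTCA (CRE) and TTGCGCAA (C/EBP). The search also covered the AP-1 site TGANTCA. The element CCAAT, bound by the factor NF-Y, was included as a common promoter element. The E-box CACGTG was included too and is contained in the CLEAR core. Capitals mark the matches, and a match on the other strand reads as the reverse complement of the motif. *Atf3* is shown from -140 to -81 (chr1:191183414-191183473, minus strand), *Trib3* from 3 to 32 (chr2:152344028-152344057, minus strand), *Ddit3* from -250 to -61 (chr10:127290543-127290732, plus strand) and *Atf4* from -130 to -61 (chr15:80255054-80255123, plus strand).
Atf3: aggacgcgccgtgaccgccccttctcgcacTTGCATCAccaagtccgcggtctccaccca
Trib3: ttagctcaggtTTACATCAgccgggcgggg
Ddit3: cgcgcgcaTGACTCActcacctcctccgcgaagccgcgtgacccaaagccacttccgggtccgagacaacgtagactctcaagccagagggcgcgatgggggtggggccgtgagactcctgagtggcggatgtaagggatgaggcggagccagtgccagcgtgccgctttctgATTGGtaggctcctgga
Atf4: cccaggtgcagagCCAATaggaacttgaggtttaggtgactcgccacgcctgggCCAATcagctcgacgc

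The composite TGATGNAA was found in the windows of *Atf3* and *Trib3* and in none of the other 5 genes, and 3.97% of all 32851 promoter windows held it. TGANTCA was found in *Ddit3* (7.81% of all windows). CCAAT was found in *Atf4*, *Atf5*, *Ddit3*, *Cebpg* and *Atf3* and is common, at 37.4% of all windows. No window of the 7 genes held CACGTG (7.15% of all windows), TCACGTGA (0.974%), TGACGTCA (1.79%) or TTGCGCAA (0.183%). A match is a run of letters in these windows, and binding was not measured. The *Atf3* window (chr1:191183284-191183583) lies inside the gene, so sequence at the gene's upstream end (191218039) was not searched. *Atf5* had windows at chr7:44816609-44816908 and chr7:44815609-44815908, and CCAAT was found only in the latter. Sequence outside the windows was not searched for any gene.

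Per length, *Atf4* was the most abundant of the 7 mRNAs in every group. In WT cells under DMSO it averaged 515 ± 27.9 TPM (transcript abundance scaled for length and library; SD, n = 4), followed by *Atf5* at 205 ± 50.1, *Cebpb* at 80.1 ± 2.57, *Trib3* at 59.4 ± 7.12, *Ddit3* at 32.2 ± 4.76, *Cebpg* at 28.4 ± 1.37 and *Atf3* at 9.99 ± 0.727 TPM. Only the ranges of *Ddit3* and *Cebpg* overlapped between neighbours in that order. The order was the same in DKO cells under DMSO, with *Atf4* at 422 ± 29.1 and *Atf3* at 12.6 ± 2.58 TPM, where the ranges of *Atf4* and *Atf5* overlapped as well as those of *Ddit3* and *Cebpg*. With torin1, *Atf4* was at 202 ± 12.4 TPM in WT and 157 ± 7.95 TPM in DKO cells, and *Cebpb* came before *Atf5* in both. *Trib3*, the fourth of the 7 under DMSO, fell to 4.05 ± 1.19 TPM in WT and 4.56 ± 0.842 TPM in DKO cells, next to last and last in the order. With MK-8722 in WT cells, *Ddit3* at 77.0 ± 21.1 TPM came before *Trib3* at 54.1 ± 8.81 TPM, although the ranges of these neighbours overlapped. The leading *Atf4* transcript (ENSMUST00000109605) held between 76.4% and 85.7% of the gene's TPM in each of the 24 libraries, and the leading *Atf5* transcript (ENSMUST00000047356) between 74.3% and 85.7%. Leading shares were less even for *Cebpg* (50.2% to 64.5%) and *Atf3* (34.7% to 93.2%). A processed transcript of *Atf3* of 517 bases (ENSMUST00000131854) held 0% to 54.4% of its TPM in WT cells with torin1.

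**Figure D1:**
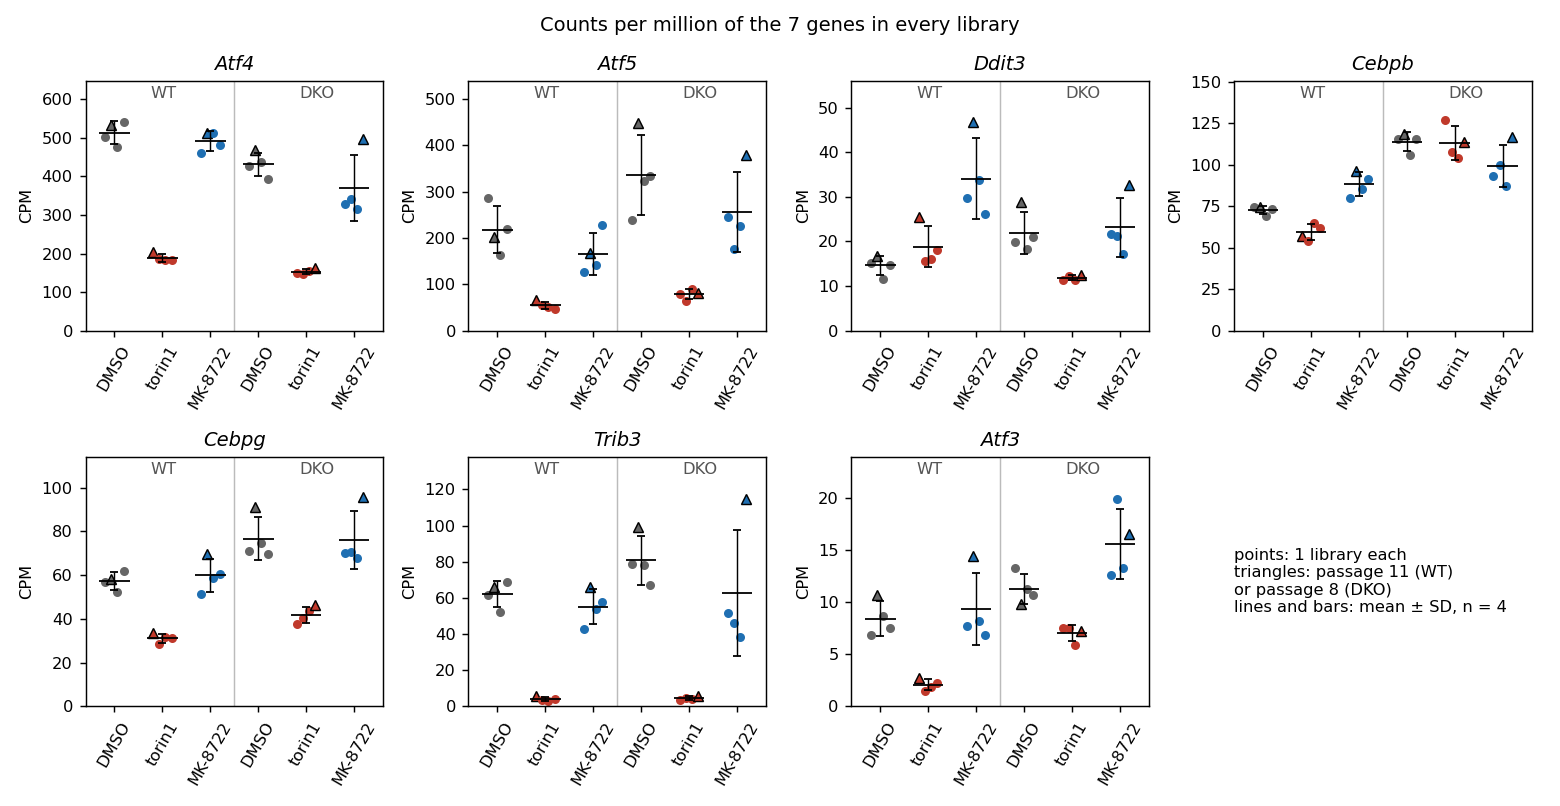
CPM (counts scaled to library size by TMM, y axis from 0) of the 7 genes in each of the 24 libraries, by genotype and treatment, with the mean and SD of each group (n = 4) and triangles for the libraries of WT passage 11 and DKO passage 8. The torin1 libraries of *Atf4*, *Atf5*, *Cebpg* and *Trib3* lie below all DMSO and MK-8722 libraries of their genotype, and *Ddit3* is highest in WT cells with MK-8722, at 26.1 to 46.9 CPM.

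Torin1 lowered the mRNA of most of the 7 genes in both genotypes. In WT cells 6 of 7 were called lower and none higher, where called means a fold of 1.2 or more together with an adjusted p below 0.05, against 20.5% of all genes tested called lower and 26.6% called higher. In DKO cells 6 of 7 were called lower and none higher, against 20.2% and 23% of all genes. *Trib3* changed most, by 15.4-fold in WT and 17.4-fold in DKO cells, followed by *Atf3* and *Atf5* in WT and by *Atf5* and *Atf4* in DKO cells. *Ddit3* was the member not called in WT cells and *Cebpb* the member not called in DKO cells.

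*Atf4* was at 501, 532, 477 and 542 CPM in the WT DMSO libraries and at 203, 187, 183 and 182 CPM with torin1. In DKO cells it was at 427, 467, 437 and 393 CPM under DMSO and at 149.9, 146, 156 and 162 CPM with torin1. The groups did not overlap in either genotype. The log2 fold change was -1.44 in WT (SE 0.0986, adjusted p = 2.41e-11) and -1.49 in DKO cells (SE 0.0989, adjusted p = 1.71e-11). Within passages it ranged from -1.54 to -1.39 in WT and from -1.55 to -1.39 in DKO cells. The difference between the genotypes' responses was -0.05, with a 95% interval from -0.34 to 0.24 on the log2 scale.

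*Trib3*, which binds ATF4 and CHOP and is one of their sensitive targets, was at 61.5, 65.9, 52.1 and 68.8 CPM in WT cells under DMSO and at 5.62, 3.43, 3.10 and 4.01 CPM with torin1. In DKO cells it went from 78.7, 99.4, 78.2 and 67.0 CPM to 3.73, 4.74, 4.17 and 5.93 CPM. All 8 torin1 libraries lay far under the lowest DMSO library of either genotype, at 52.1 CPM. The log2 fold change was -3.94 in WT (SE 0.289, adjusted p = 7.18e-11) and -4.12 in DKO cells (SE 0.289, adjusted p = 4.30e-11), and the responses differed by -0.18 (95% interval -1.02 to 0.66). *Trib3* rested on 99 to 172 counts per WT torin1 library and 100 to 166 per DKO torin1 library.

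*Atf5*, a bZIP factor translated in a similar way to ATF4, was at 164 to 286 CPM in WT and 239 to 448 CPM in DKO cells under DMSO and at 46.9 to 65.9 CPM and 64.8 to 90.6 CPM with torin1. Torin1 changed it by -1.99 on the log2 scale in WT (SE 0.228, adjusted p = 9.16e-08) and -2.09 in DKO cells (SE 0.228, adjusted p = 4.67e-08), with no overlap between the groups. *Cebpg*, a C/EBP without a transactivation domain that pairs with ATF4, fell by 0.88 on the log2 scale in WT (SE 0.108, adjusted p = 2.60e-07) and by 0.87 in DKO cells (SE 0.107, adjusted p = 3.10e-07). The genotypes' responses to torin1 differed by -0.10 for *Atf5* (95% interval -0.75 to 0.55) and by 0.01 for *Cebpg* (95% interval -0.30 to 0.33).

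*Atf3*, an ATF family repressor induced by many stresses, fell in both genotypes and fell further in WT cells. It was at 6.82, 10.7, 8.66 and 7.56 CPM in WT cells under DMSO and at 2.71, 1.49, 1.88 and 2.29 CPM with torin1. In DKO cells it was at 13.3, 9.86, 11.3 and 10.7 CPM under DMSO and at 7.54, 7.57, 5.93 and 7.22 CPM with torin1. The groups did not overlap within either genotype, and with torin1 the lowest DKO library was above the highest WT library. On the log2 scale *Atf3* changed by -2.01 in WT (SE 0.231, adjusted p = 9.50e-08) and -0.68 in DKO cells (SE 0.205, adjusted p = 0.0069). The responses differed by 1.34 (SE 0.309, adjusted p = 0.00461), and leaving out each library in turn gave 1.202 to 1.528. *Atf3* rested on 47 to 83 counts per WT torin1 library.

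*Ddit3*, which encodes CHOP, a C/EBP-like factor tied to cell death after prolonged stress, did not follow the other members in WT cells. It was at 15.2, 16.8, 11.6 and 14.8 CPM under DMSO and at 25.6, 15.6, 16.1 and 18.1 CPM with torin1 in WT cells, where the groups overlapped. In DKO cells it was at 19.8, 28.9, 18.2 and 20.9 CPM under DMSO and at 11.3, 12.3, 11.4 and 12.4 CPM with torin1, with no overlap. *Ddit3* changed by 0.36 on the log2 scale in WT (SE 0.199, adjusted p = 0.121) and -0.88 in DKO cells (SE 0.203, adjusted p = 7.00e-04), and the responses differed by -1.25 (SE 0.284, adjusted p = 0.00407). With passage as a block within each genotype, the WT value of 0.35 passed the threshold (adjusted p = 0.00713), being above 0 at 4 of 4 passages but only 0.07 and 0.08 at the lowest of them. Without scaling beyond library size it was 0.46 (adjusted p = 0.0483). The difference between the responses was -1.09 without the WT passage 11 libraries (adjusted p = 0.00401) and -1.10 without those of DKO passage 8 (adjusted p = 0.00827).

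*Cebpb*, a C/EBP activator with roles in inflammation and fat cell differentiation, moved least. It went from 69.4 to 74.7 CPM under DMSO to 54.0 to 65.1 CPM with torin1 in WT cells, a log2 fold change of -0.29 (SE 0.0792, adjusted p = 0.00273) whose fold of 1.23 is close to the threshold, and it was not called with library size alone (-0.20) or without the WT torin1 library of replicate 2 (-0.25). In DKO cells it was at 106 to 119 CPM and 104 to 127 CPM, a log2 fold change of -0.01 (95% interval -0.18 to 0.15). The responses of the genotypes differed by 0.28 (SE 0.111, adjusted p = 0.0949). That difference passed the threshold with passage as a block within each genotype (0.28, adjusted p = 0.0171).

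**Figure D2:**
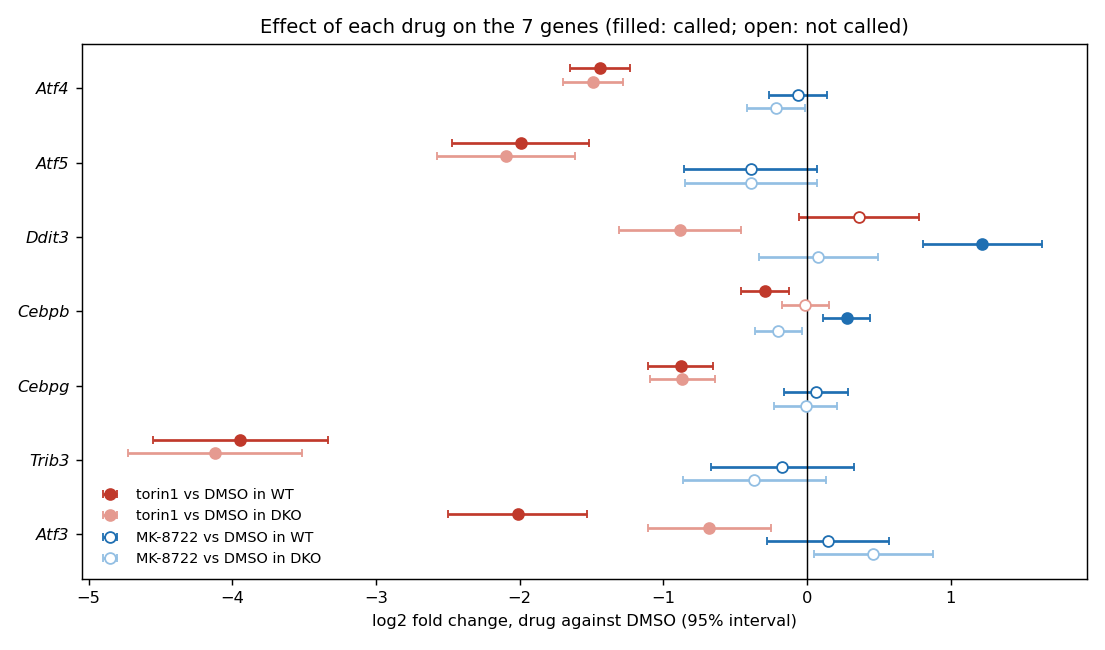
Log2 fold change of each drug against DMSO (x axis) for the 7 genes, in WT and *tfeb tfe3* DKO cells, with 95% intervals from edgeR, where filled points are called and open points are not. Torin1 lies far below 0 for *Trib3*, *Atf5* and *Atf4* in both genotypes, while MK-8722 is called only for *Ddit3* (1.22) and *Cebpb* (0.28), in WT cells.

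MK-8722 changed few of the 7 genes. In WT cells *Ddit3* and *Cebpb* were called higher and none lower, 2 of 7 against 10.3% of all genes called higher and 5.87% called lower. With passage as a block within each genotype, *Atf5* was called lower in WT cells as well (-0.40, adjusted p = 0.00725 in edgeR). In DKO cells none of the 7 was called in edgeR's test, where 5.47% of all genes were called higher and 3.21% lower, and *Atf4*, *Cebpb* and *Atf3* had an unadjusted p under 0.05 (0.0353, 0.0187 and 0.0286). DESeq2's Wald test and limma voom also called none in DKO cells. The count was 1 with passage as a block, 3 with passage as a block within each genotype, 3 without the DKO passage 8 libraries and 4 without the MK-8722 library of that passage alone.

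*Ddit3* was at 29.8, 46.9, 33.7 and 26.1 CPM in WT cells with MK-8722, all above the highest WT DMSO library at 16.8 CPM. The log2 fold change of 1.22 (SE 0.197, adjusted p = 4.97e-05) was positive at each of the 4 passages, from 0.77 to 1.47. In DKO cells *Ddit3* was at 21.6, 21.3, 17.2 and 32.6 CPM, overlapping the DMSO range of 18.2 to 28.9 CPM, with a log2 fold change of 0.08 (95% interval -0.33 to 0.49). The response was smaller in DKO than in WT cells by 1.14 on the log2 scale, given as -1.14 (SE 0.278, adjusted p = 0.0118). It was -1.01 without WT passage 11 (adjusted p = 0.0109), whose MK-8722 library held the highest *Ddit3* value, and -1.19 without DKO passage 8 (adjusted p = 0.00627).

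*Cebpb* was at 79.8, 96.1, 85.7 and 91.6 CPM in WT cells with MK-8722 and at 74.6, 74.7, 69.4 and 73.2 CPM under DMSO, with no overlap. The log2 fold change of 0.28 (SE 0.0789, adjusted p = 0.00984) corresponds to a fold of 1.21, and it lost its call without WT passage 11 (0.24, adjusted p = 0.0667), without WT MK-8722 replicate 2 (0.22) or 4 (0.24) and without WT DMSO replicate 3 (0.25). In DKO cells *Cebpb* was at 93.5, 99.7, 87.3 and 117 CPM with MK-8722 against 115, 119, 106 and 116 CPM under DMSO, lower at 4 of 4 passages but not called (log2 fold change -0.20, SE 0.0786, adjusted p = 0.0757). The responses to MK-8722 differed by -0.48 (SE 0.111, adjusted p = 0.00888), and by -0.43 without WT passage 11 (adjusted p = 0.0387). *Ddit3* and *Cebpb* were thus the 2 of 7 members with a response to MK-8722 called lower in DKO cells, against 4.08% of all genes called lower and 1.42% called higher. For torin1 the members called were *Atf3*, higher, and *Ddit3*, lower, against 4.68% of all genes called higher and 6.33% called lower.

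*Atf4* itself showed a log2 fold change with MK-8722 of -0.06 in WT cells (95% interval -0.26 to 0.14), at 460, 513, 512 and 482 CPM. *Atf5* averaged 166 ± 45.0 CPM with MK-8722 against 218 ± 50.8 CPM under DMSO in WT cells, and 257 ± 86.7 CPM against 336 ± 86.1 CPM in DKO cells. These values overlapped and were not called (log2 fold changes of -0.39 and -0.39, adjusted p = 0.189 and 0.229), although within passages *Atf5* was lower with the drug at 4 of 4 passages of each genotype. With passage as a block within each genotype they were -0.40 (adjusted p = 0.00725) and -0.40 (adjusted p = 0.00785) and passed the threshold. *Cebpg* had log2 fold changes of 0.07 (95% interval -0.16 to 0.29) in WT and -0.01 (95% interval -0.23 to 0.21) in DKO cells.

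In DKO cells with MK-8722, several members depended on the passage 8 libraries. *Atf4* was at 329, 343 and 315 CPM at passages 9, 11 and 10 and at 498 CPM at passage 8, above the DMSO libraries at 393 to 467 CPM. *Trib3* was at 51.7, 46.1 and 38.6 CPM and at 114 CPM at passage 8. Over all 4 passages the log2 fold changes were -0.22 for *Atf4* (adjusted p = 0.12) and -0.37 for *Trib3* (adjusted p = 0.307). Without the passage 8 libraries, *Atf4* was at -0.35 (adjusted p = 3.82e-04), *Trib3* at -0.72 (adjusted p = 0.00395) and *Cebpb* at -0.27 (adjusted p = 0.0257), all then called lower, and the response of *Atf4* to MK-8722 was then lower in DKO than in WT cells (-0.29, adjusted p = 0.0278). Without the MK-8722 library of passage 8 alone, *Atf5* was called lower too (-0.64, adjusted p = 0.032). With passage as a block within each genotype, *Trib3* was at -0.46 over all passages and called (adjusted p = 0.00698). The passage 10 library, with the lowest RNA integrity, held the lowest *Atf4*, *Ddit3*, *Cebpb*, *Cebpg* and *Trib3* values of this group. *Atf5* was lowest at passage 11 (176 CPM) and *Atf3* at passage 9 (12.6 CPM). The share of all genes lowest in the passage 10 library was not counted, and a part of RNA integrity was not tested. *Atf3* was at 12.6, 19.9, 13.3 and 16.6 CPM against 9.86 to 13.3 CPM under DMSO, higher at 4 of 4 passages, with a log2 fold change of 0.46 (adjusted p = 0.102) that passed the threshold with passage as a block within each genotype (0.45, adjusted p = 0.00145).

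**Figure D3:**
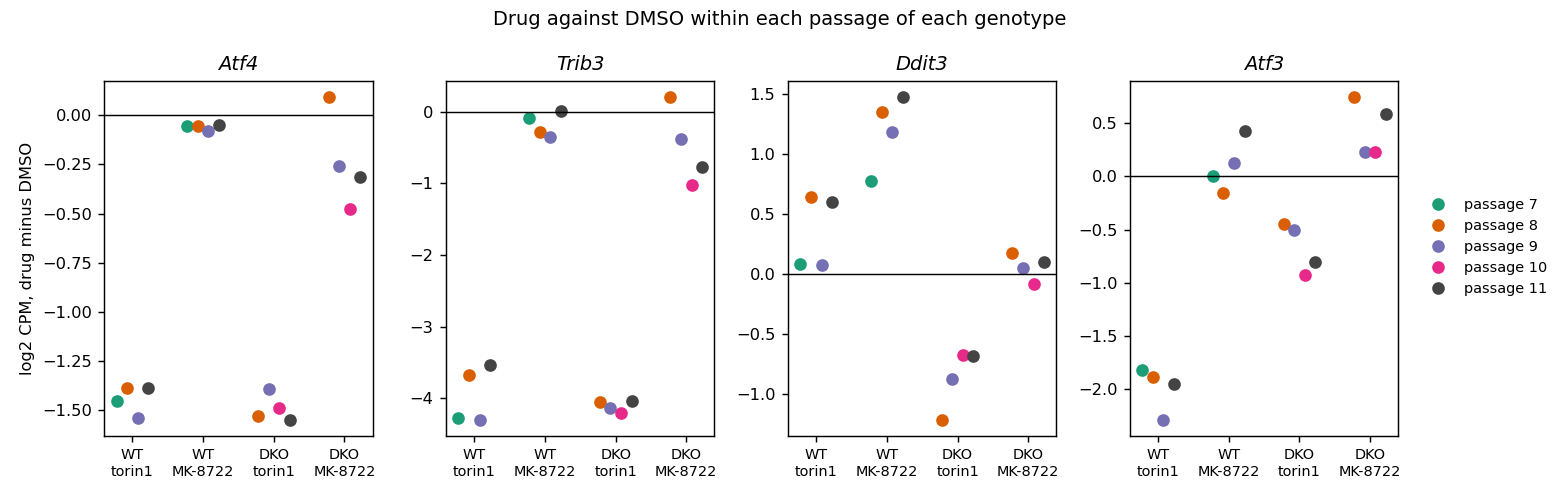
Difference in log2 CPM (y axis, scaled per panel) between the drug library and the DMSO library of the same passage for *Atf4*, *Trib3*, *Ddit3* and *Atf3*, with 1 point per passage coloured by passage. With MK-8722 in DKO cells, *Atf4* and *Trib3* are above 0 at passage 8 (0.09 and 0.20) and below 0 at the other 3 passages, and *Ddit3* in WT cells is above 0 at all 4 passages.

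Set against each other, torin1 and MK-8722 gave different levels of nearly all members, at doses that differ (100 nM and 10 µM). In WT cells all 7 were lower with torin1 than with MK-8722, where 20% of all genes were called lower and 24.9% higher. In DKO cells 6 of 7 were lower, against 19.3% lower and 21.1% higher over all genes, and *Cebpb* was the exception (log2 difference 0.19, adjusted p = 0.0457, below the fold threshold). The log2 differences in WT cells ran from -0.57 for *Cebpb* to -3.77 for *Trib3*. For *Ddit3* they were -0.86 in WT and -0.96 in DKO cells. This comparison shares its torin1 libraries with the comparison against DMSO and its MK-8722 libraries with that of MK-8722.

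Between genotypes, *Atf4* was called lower in DKO cells with both drugs, while *Atf5* and *Cebpg* were called higher under every treatment. Under DMSO, *Atf5*, *Ddit3*, *Cebpb* and *Cebpg* were called higher in DKO cells and none lower, 4 of 7 against 23.5% of all genes called higher and 24.6% lower. With torin1, *Atf5*, *Cebpb*, *Cebpg* and *Atf3* were called higher and *Atf4* and *Ddit3* lower, against 24% higher and 27.8% lower over all genes. With MK-8722, *Atf5*, *Cebpg* and *Atf3* were called higher and *Atf4* and *Ddit3* lower, against 23.3% and 25.4%. Of the listed ISGs, all DKO libraries averaged 5.83 to 6.94 log2 CPM, close to WT passage 11 at 5.86 to 6.34 and far above the other WT libraries at 1.76 to 3.89. *Acta1*, here in CPM with TMM scaling, was at 0.191 to 1.33 CPM in WT and 2.62 to 9.92 CPM in DKO libraries, and *Cdh1* was called lower in DKO cells under every treatment. The part of these differences in the genotype comparisons was not tested.

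*Cebpb* was at 106 to 119 CPM in DKO and 69.4 to 74.7 CPM in WT cells under DMSO (log2 difference 0.64, SE 0.079, adjusted p = 2.25e-07), and it was higher by 0.93 with torin1 (SE 0.0795, adjusted p = 6.40e-10). With MK-8722 the difference was 0.17 (adjusted p = 0.0667) and the groups overlapped. *Cebpg* was higher in DKO cells by 0.42 under DMSO (adjusted p = 0.00157), 0.43 with torin1 (adjusted p = 0.00137) and 0.34 with MK-8722 (adjusted p = 0.00755). *Atf5* was higher by 0.62 under DMSO (adjusted p = 0.0164), 0.52 with torin1 (adjusted p = 0.0424) and 0.63 with MK-8722 (adjusted p = 0.0161), with wide spreads in every group. *Trib3* was not called between genotypes under any treatment, its differences being 0.38, 0.20 and 0.19.

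*Atf4* was lower in DKO cells by 0.25 under DMSO, given as -0.25 (SE 0.0966, adjusted p = 0.0277), a fold of 1.19 just under the threshold, and it was called with library size alone (-0.32, adjusted p = 0.00452). With torin1 it was at -0.30 (SE 0.0971, adjusted p = 0.00961) and with MK-8722 at -0.41 (SE 0.0967, adjusted p = 8.54e-04). *Atf3* had the largest difference of the 7 with each drug, by 1.76 with torin1 (SE 0.234, adjusted p = 6.60e-07), and by 0.74 with MK-8722 (SE 0.199, adjusted p = 0.00258) and 0.42 under DMSO (SE 0.201, adjusted p = 0.0733). *Ddit3* changed sign with treatment, being higher in DKO cells under DMSO (0.58, SE 0.199, adjusted p = 0.0144) and lower with torin1 (-0.67, SE 0.202, adjusted p = 0.00613) and MK-8722 (-0.56, SE 0.193, adjusted p = 0.0152).

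Several of these calls rested on single passages or libraries. Without the DKO passage 8 libraries, *Ddit3* under DMSO was at 0.43 (adjusted p = 0.0509) and *Atf5* at 0.46 (adjusted p = 0.0519), both then not called, and *Atf4* was at -0.29 (adjusted p = 1.31e-04) and called lower. With MK-8722, *Atf5* was at 0.38 (adjusted p = 0.104) and *Cebpg* at 0.21 (adjusted p = 0.027) without them, neither called. Without the WT passage 11 libraries, *Ddit3* was lower by 0.47 with torin1, given as -0.47 (adjusted p = 0.0236), and at -0.39 with MK-8722 (adjusted p = 0.043), *Atf4* with torin1 was at -0.25 (adjusted p = 0.0485) and not called, and *Atf3* under DMSO was at 0.53 (adjusted p = 0.00403) and called higher. The DMSO calls of *Ddit3* (0.49) and *Atf5* (0.51) were also lost without WT DMSO replicate 3. With MK-8722, *Ddit3* lost its call without WT MK-8722 replicate 2 (-0.38) or DKO MK-8722 replicate 3 (-0.44), *Cebpg* without WT MK-8722 replicate 1 (0.26), and *Atf5* without WT MK-8722 replicate 1 (0.51) or 3 (0.56). *Atf5* with torin1 lost its call without any of 6 single libraries (0.46 to 0.53), with library size alone (0.40, adjusted p = 0.117) and with limma voom (0.52, adjusted p = 0.0637).

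The DKO libraries of passage 8 held the highest value of their group for 6 of the 7 members under DMSO and for 6 of 7 with MK-8722, *Atf3* being the exception in both. Over all genes tested that library was the highest for 30.9% under DMSO and 29.8% with MK-8722. With torin1 it was the highest for 4 of 7, against 27.8% of all genes. The distance of passage 8 from the mean of the other DKO libraries was 1.34 on the log2 scale for *Trib3*, 0.83 for *Atf5*, 0.71 for *Ddit3* and 0.60 for *Atf4* with MK-8722. Under DMSO it was 0.42 for *Trib3*, 0.60 for *Atf5*, 0.56 for *Ddit3* and 0.16 for *Atf4*, while with torin1 it was 0.49 for *Trib3*, 0.07 for *Atf5*, 0.08 for *Ddit3* and 0.11 for *Atf4*. ATF4 target genes showed the same library apart, with 41 of 49 highest at passage 8 under DMSO, 47 of 49 with MK-8722 and 21 of 49 with torin1. Of the ER chaperones and other ER stress genes, 5 of 23 were highest there under DMSO, 5 of 23 with MK-8722 and 9 of 23 with torin1. The WT passage 11 libraries were the highest of their group for 3 of 7 members under DMSO, 6 of 7 with torin1 and 6 of 7 with MK-8722, against 30.2%, 26.7% and 28.8% of all genes. Their distance from the other WT libraries was largest for *Atf3* with MK-8722, at 0.92.

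**Figure D4:**
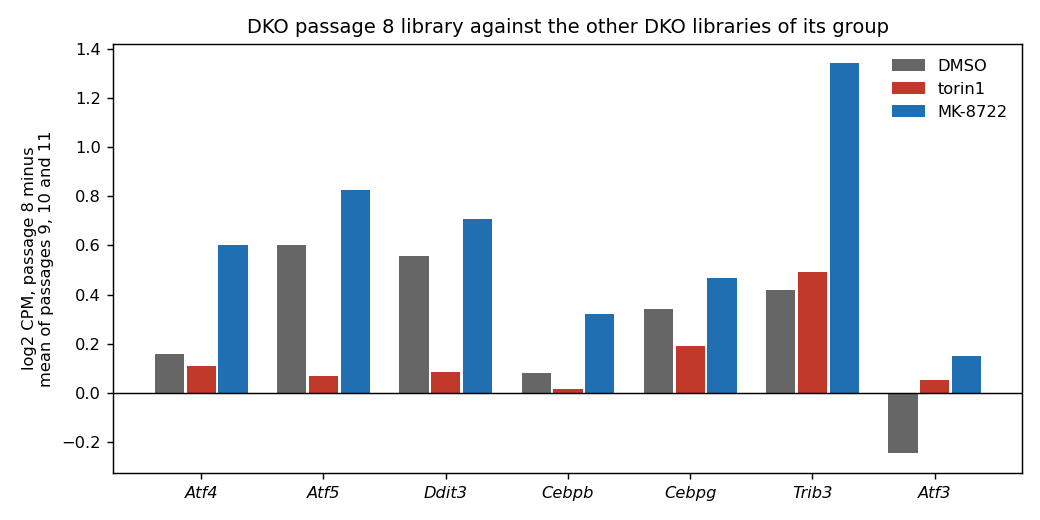
Log2 CPM of the DKO library of passage 8 minus the mean of the DKO libraries of passages 9, 10 and 11 (y axis) for the 7 genes under each treatment. The bars of *Trib3* (1.34) and *Atf5* (0.83) with MK-8722 are the tallest, and *Atf3* under DMSO lies below 0 (-0.25).

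Genes listed as targets of ATF4 also fell with torin1. A list of 50 genes had 49 tested genes. It held genes for amino acid synthesis and transport, aminoacyl-tRNA synthetases, redox and stress hormones. Others on it were of different kinds, such as *Soat2*, *Ndrg1*, *Tgif1*, *Vegfa*, *Ppp1r15a* and *Jdp2*. The list was written by hand with earlier results of these data known, so its counts are a description. In WT cells 45 of 49 were called lower and 2 higher with torin1, against 20.5% and 26.6% of all genes. The median log2 fold change was -1.34 against 0.05 over all genes. In DKO cells 42 were lower and 3 higher, against 20.2% and 23% of all genes, with a median of -1.32 against 0.02. The largest falls in both genotypes were those of *Fgf21*, a stress hormone (-6.60 in WT, -6.14 in DKO), *Slc7a11*, the cystine transporter (-5.00 and -4.64), and *Soat2*, a sterol acyltransferase (-3.87 and -3.96). *Ndrg1* rose (0.97 and 0.84), as did *Ppp1r15a* in WT (0.31) and *Tgif1* and *Vegfa* in DKO cells (0.53 and 0.34). The response to torin1 differed between genotypes for 6 of 49, higher in DKO for 4 and lower for 2, against 4.68% and 6.33% of all genes.

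**Figure D5:**
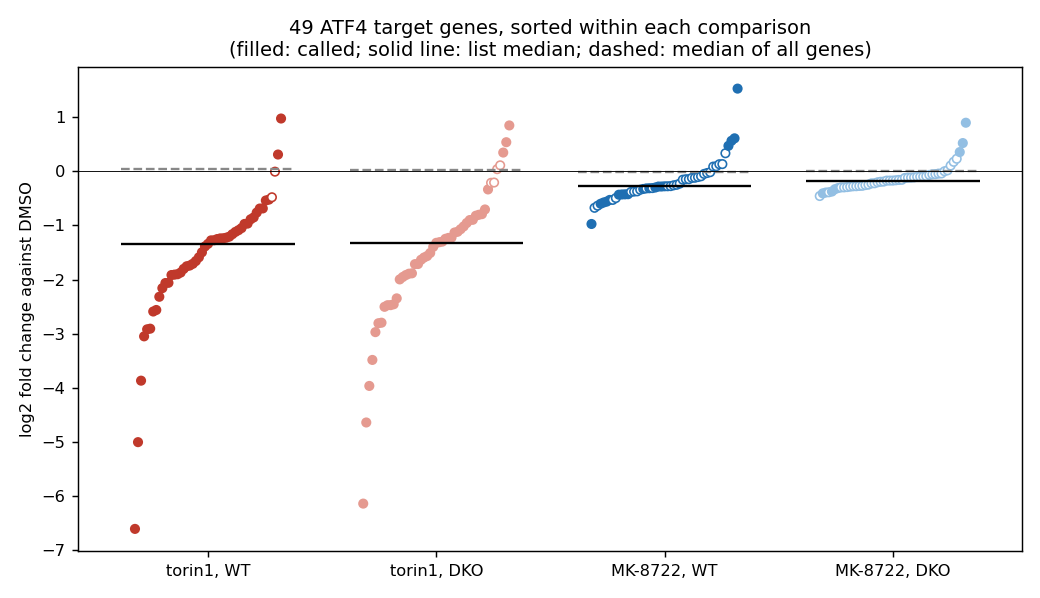
Log2 fold change against DMSO (y axis) of the 49 tested ATF4 target genes, sorted within each of the 4 comparisons of drug and genotype, with filled points for called genes, a solid line at the median of the list and a dashed line at the median of all genes tested. With torin1 the list medians lie at -1.34 and -1.32, and with MK-8722 at -0.28 and -0.17.

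MK-8722 lowered fewer of these targets and by less. In WT cells 15 of 49 were called lower and 4 higher, against 5.87% and 10.3% of all genes, with a median of -0.28 against -0.01 over all genes. The changes were led by *Slc7a11* (-0.97), *Slc7a5* (-0.60) and *Psph* (-0.58) downward and *Ndrg1* (1.52), *Tgif1* (0.61) and *Ppp1r15a* (0.56) upward. These 19 calls became 11 without WT DMSO replicate 1 or WT MK-8722 replicate 1, and 31 with passage as a block within each genotype. In DKO cells 5 were lower and 3 higher, against 3.21% and 5.47% of all genes, with a median of -0.17 against 0.00. These 8 calls became 17 without the passage 8 libraries and 27 without MK-8722 replicate 4 alone. They became 5 and 4 without MK-8722 replicates 1 and 2, and 18 with passage as a block within each genotype. The response to MK-8722 was lower in DKO cells for 2 of 49, *Ndrg1* (-0.63) and *Ppp1r15a* (-0.55), and higher for none. Over all genes 4.08% were called lower and 1.42% higher, so the share called lower in the list was close to that of all genes. Torin1 against MK-8722 gave 46 of 49 lower in WT and 42 in DKO cells, none higher. Over all genes 20% were lower and 24.9% higher in WT, and 19.3% and 21.1% in DKO cells. Between genotypes the list was split, with 8 higher and 6 lower in DKO cells under DMSO, 11 and 8 with torin1, and 11 and 6 with MK-8722, smaller shares than over all genes (23.5% and 24.6% under DMSO, 24% and 27.8% with torin1, 23.3% and 25.4% with MK-8722).

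Upstream of ATF4 lie the eIF2 kinases, the subunits of eIF2 and of its exchange factor eIF2B, and the phosphatase subunits. Of 20 tested genes of this pathway, torin1 raised 3 and lowered 9 in WT and raised 1 and lowered 5 in DKO cells, while MK-8722 raised 3 and lowered none in WT and lowered 2 in DKO cells. Over all genes torin1 raised 26.6% and lowered 20.5% in WT and raised 23% and lowered 20.2% in DKO cells, and MK-8722 raised 10.3% and lowered 5.87% in WT and raised 5.47% and lowered 3.21% in DKO cells, which applies to the counts of the lists that follow as well. *Ppp1r15b*, the constitutive phosphatase subunit, fell with torin1 in both genotypes (-0.88 and -0.86), and *Ppp1r15a*, the inducible subunit also listed as a target of CHOP, rose with MK-8722 in WT cells. Among the kinases, *Eif2ak3* (PERK) rose with MK-8722 in WT cells (0.34) and *Eif2ak1* (HRI) fell with it in DKO cells (-0.29). *Impact*, an inhibitor of the kinase GCN2, rose in WT cells with torin1 (0.69) and MK-8722 (1.18) and fell with torin1 in DKO cells (-0.52), and its responses differed by -1.21 and -1.01. *Impact* was thus called lower in its response in DKO cells to both drugs, as was *Ddit3*.

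Of 6 tested genes listed as targets of CHOP, torin1 raised 2 and lowered 3 in WT and raised 1 and lowered 4 in DKO cells. MK-8722, with which *Ddit3* rose in WT cells, raised 3 of them there, *Ppp1r15a* (0.56), *Gadd45a* (0.46) and *Tnfrsf10b* (0.28), and lowered 2, *Bbc3* (-0.37) and *Bcl2l11* (-0.49). In DKO cells MK-8722 raised none and lowered *Bbc3* (-0.47). *Ero1l*, an ER oxidase, fell with torin1 (-0.79 and -0.99). Of the other Tribbles genes, *Stk40* fell with torin1 (-1.33 and -1.68) and *Trib1* rose with MK-8722 in WT (0.33) and with torin1 in DKO cells (0.54).

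Other bZIP genes, some of whose products can pair with those of the bZIP members, moved in both directions. Of 32 tested, torin1 raised 6 and lowered 15 in WT and raised 5 and lowered 15 in DKO cells, and MK-8722 raised 9 and lowered 2 in WT and raised 4 and lowered 3 in DKO cells. The genes raised by torin1 were a smaller share than the 26.6% and 23% over all genes, and those lowered a larger share than the 20.5% and 20.2%. *Cebpd*, another C/EBP activator, rose with torin1 in both genotypes (1.13 and 1.21), rose with MK-8722 in WT (0.56) and fell with it in DKO cells (-0.53), a difference in response of -1.10. *Maff* and *Mafg* also rose with MK-8722 in WT cells (1.03 and 0.96), by more than in DKO cells (0.34 and 0.35), with differences in response of -0.68 and -0.61. *Jdp2*, a repressor that is also on the ATF4 target list, fell with torin1 (-1.71 and -1.95), and *Fos*, an AP-1 subunit, fell with it too (-0.53 and -1.54).

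Genes of the ER stress branches run by ATF6, IRE1 and XBP1 fell with torin1 as well, 17 of 23 called lower and 1 higher in WT and 16 lower and 1 higher in DKO cells, with medians of -0.57 and -0.43. The largest falls in WT cells were those of *Herpud1* (-1.58), *Xbp1* (-1.34) and the chaperone gene *Hspa5* (-1.24), and *Dnajb9* rose (0.56). MK-8722 raised *Atf6* (0.63) and *Edem1* (0.39) in WT cells and lowered none. Of 10 genes of mitochondrial chaperones and proteases, torin1 lowered 4 and raised 1 in WT and lowered 5 and raised 2 in DKO cells (over all genes 20.5% and 26.6% in WT, 20.2% and 23% in DKO), *Hspe1* falling most (-0.48 and -0.49), and MK-8722 changed none in WT cells and lowered *Clpp* in DKO cells (-0.28).

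Over the 24 libraries, the genes most like each member in log2 CPM were found by Pearson's r, a description since libraries of a group share their treatment. For *Atf4* they were the tyrosyl-tRNA synthetase gene *Yars* (r = 0.985), *Pelo* (0.984) and *H2az1* (0.977). For *Atf5* they were the serine synthesis gene *Phgdh* (0.983), the proline synthesis gene *Pycr1* (0.981) and the cysteinyl-tRNA synthetase gene *Cars* (0.979), and for *Trib3* the folate enzyme gene *Mthfd2* (0.989) and the amino acid transporter genes *Slc7a1* (0.988) and *Slc1a4* (0.985). *Cebpg* was most like *Ankib1* (0.973), *Zdhhc5* (0.969) and *Ube3c* (0.965), *Atf3* like *Golt1b* (0.953), *Ckap4* (0.949) and *Tmem164* (0.948), and *Cebpb* like *Lhfp* (0.943), *Ctdp1* (0.928) and *Polr3e* (0.927). *Ddit3* had no gene as close, its nearest being *Rita1* (0.876), *Tgoln1* (0.862) and *Itgb1bp1* (0.851).

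Within groups, some pairs of members deviated together from their group means and others did not. Over the pairs of members r ranged from -0.27 to 0.90, and from -0.34 to 0.75 without DKO passage 8. The highest values over 24 libraries were 0.90 for *Atf4* and *Trib3*, 0.87 for *Cebpg* and *Trib3*, 0.84 for *Atf4* and *Cebpg* and 0.80 for *Ddit3* and *Trib3*. Over the 21 libraries without DKO passage 8 these were 0.71, 0.73, 0.70 and 0.75. Without DKO passage 8, r was 0.21 for *Atf4* and *Atf5*, 0.11 for *Atf4* and *Cebpb*, 0.12 for *Atf5* and *Ddit3*, 0.08 for *Atf5* and *Cebpb* and 0.12 for *Cebpb* and *Trib3*. The lowest pair was *Atf5* and *Atf3*, at -0.34. The libraries share their passages, so these values are descriptions of the libraries sequenced.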

How the data were processed

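Polyadenylated RNA of 24 MEF libraries was read as 52 bp pairs. The authors aligned reads to GRCm38 with STAR in the nf-core/rnaseq workflow, used unique molecular identifiers, and deposited salmon estimated counts and TPM per gene and transcript, of which the counts are not scaled between libraries and TPM is scaled for length and library. The labels give a single batch, although the study's methods mention removing a batch effect, so none was removed.

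Estimated counts were rounded, filtered with filterByExpr (minimum count 10, 15401 of 55487 genes kept), scaled by TMM and fitted in edgeR 4.0.16 (R 4.3.3) by the quasi-likelihood method in its edgeR 3 form, with 1 mean per group over all 24 libraries and 18 residual degrees of freedom. 11 contrasts were tested, with Benjamini-Hochberg adjustment over all genes tested, and a called gene had an adjusted p below 0.05 together with a fold of 1.2 or more. Log2 CPM used a prior count of 2. 95% intervals are of the log2 fold change. TPM entered no test. On simulated data for torin1 against DMSO in WT (15401 genes), 44, 39, 39 and 49 of 50 genes changed by -2, -1, 1 and 2 on the log2 scale were called, and 4 unchanged genes. Only 200 genes were changed, evenly up and down, with no differences between passages or genotypes. In the real contrast 26.6% of genes were called higher and 20.5% lower, so the simulated error counts do not carry over to it. The biological coefficient of variation was 10.7%.

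Genes were named by rule: the members, *Tfeb*, *Tfe3*, markers, the 3 genes most like each member by r, called genes of the eIF2, CHOP, Tribbles and bZIP lists, and the 3 largest rises and falls of the other lists. *Clpp*, *Edem1* and *Atf6* fall under that rule. Transcript overlaps and shared windows come from GENCODE on GRCm38. The members and lists were chosen, and the lists written by hand, with earlier results of these data known. Alternatives were DESeq2's size factors, library size alone, no filter, the edgeR 4 form, limma voom 3.58.1, DESeq2 1.42.0, the adjusted p alone, blocks of replicate number, of passage and of passage within genotype, passages left out and each library left out. Protein sequences were not used here.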

Additional observations from a re-analysis of the deposited data

Results flagged for a closer look

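*Atf4* in the DKO MK-8722 library of replicate 4 (passage 8) stood at 498 CPM, far from the other libraries of its group, the nearest of which was at 343 CPM. The gap was 0.847 of the group's range, above Dixon's critical value of 0.829 for 4 samples. *Cebpg* in the same library was at 95.9 CPM, with the nearest at 70.4 CPM and a gap of 0.904 of the range. Over the 42 groups of 4 libraries examined these were the only 2, and chance alone gives about 1 in 20 such groups.

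For 4 responses the test of the difference between DKO and WT cells passed the threshold in edgeR. The response of *Ddit3* to torin1 differed by -1.25 and its response to MK-8722 by -1.14. The response of *Atf3* to torin1 differed by 1.34 and that of *Cebpb* to MK-8722 by -0.48. Each of these kept its direction and its call when each library was left out in turn, with *Ddit3* between -1.33 and -1.02 for torin1 and between -1.35 and -0.93 for MK-8722, *Atf3* between 1.202 and 1.528, and *Cebpb* between -0.56 and -0.42.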

How the results depend on the processing

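Of 1631 values of single members under the alternatives, 1563 kept their side of the threshold, 37 passed it and 31 fell below it. None changed direction while called, but some values that were not called changed sign. For example, *Cebpg* with MK-8722 in WT cells went from 0.07 to -0.01 without WT passage 11. With MK-8722 in DKO cells 0 members were called, against 1 with passage as a block, 3 with passage as a block within genotype, 3 without DKO passage 8, 1 without WT passage 11 and 0 to 4 with each library left out (4 without the MK-8722 library of replicate 4). The 2 members called with MK-8722 in WT cells became 1 without WT passage 11 and 1 to 2 with libraries left out. With passage as a block within genotype, *Ddit3* and *Cebpb* stayed called there and *Atf5* was called lower too (-0.40, adjusted p = 0.00725 in edgeR). The 5 called between genotypes with MK-8722 became 3 without DKO passage 8 and 3 to 5 with libraries left out. The 19 ATF4 targets called with MK-8722 in WT cells became 31 with passage as a block within genotype and 11 to 28 with libraries left out. The 8 in DKO cells became 18 with that block, 17 without DKO passage 8 and 4 to 27. The 6 with a different response to torin1 became 12 with that block and 3 to 7 (3 without the DKO torin1 library of replicate 4), and the 2 with a different response to MK-8722 became 2 to 4. Libraries of the same replicate number had r of deviations from group means from -0.41 to 0.66 (median 0.04), with 13 of 60 pairs over 0.1. Among pairs of other numbers, 21 of 180 were over 0.1 (median -0.01). Replicate number partly followed passage in DKO cells. The replicate block changed 1 call of a member, *Atf3* between genotypes under DMSO (0.44, adjusted p = 0.0488). Libraries of the same passage and genotype had r over 0.1 in 17 of 24 pairs, against 7 of 72 pairs of the same genotype at other passages. The main fit had no term for passage, which the passage blocks add. Library size alone moved the median of all genes by -0.13 for DKO against WT with torin1, and it changed the split of genes called higher and lower. The split was 5021 and 2337 with it against 4100 and 3153 for torin1 in WT cells, 2943 and 4479 against 3621 and 3796 for DKO against WT under DMSO, 2629 and 5623 against 3692 and 4283 with torin1, 2894 and 4608 against 3588 and 3908 with MK-8722, 472 and 1306 against 721 and 975 for the response to torin1, and 4621 and 2345 against 3833 and 3083 for torin1 against MK-8722 in WT cells. *Trib3* and *Atf3* with torin1 rested on as few as 99 and 47 counts, which limits their precision.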
